A study of Mus musculus with 12 samples.

Results

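Ubiquitin conjugating enzymes (gene names beginning Ube2) and ubiquitin-specific proteases (gene names beginning Usp and a digit) are described here in RAW264.7 cells, a mouse macrophage line. The members were taken by name from a table of 18190 genes, leaving out the 1 symbol that ends in -ps. Of the 88 names found, 34 Ube2 and 54 Usp, 74 reached 1 FPKM (fragments per kilobase of transcript, scaled to the size of the library) in at least 3 of the 12 libraries. These 74, 32 Ube2 and 42 Usp genes, are the members. The name brings in Ube2cbp, which encodes a protein that binds Ube2c and is no conjugating enzyme, and Usp6nl, a GTPase-activating protein and no protease. Of the 14 names under that filter, 2 are Ube2 genes (Ube2d2b and Ube2u) and 12 are Usp genes (Usp9y, Usp13, Usp27x, Usp29, Usp44, Usp50, Usp51 and the 5 genes Usp17la to Usp17le). Nearest to the filter on its inner side was Usp11, at 0.48 to 1.25 FPKM, and on its outer side Usp27x, at no more than 0.96 FPKM in any library.

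The study sequenced poly(A) RNA of 4 groups of 3 libraries. Control cells were untreated or held for 6 h with 500 ng/ml lipopolysaccharide (LPS, a bacterial cell wall component that TLR4 senses), and shDCLK1 cells were treated in the same 2 ways. All groups carry the strain label C57BL/6, and cells of each line were plated at 200000 per well. The shDCLK1 cells steadily expressed an shRNA against Dclk1, a doublecortin-like kinase. The control cells carried a negative control shRNA by the treatment protocol, while their knockdown label reads none. Each line was monoclonal, so an effect of the shRNA and a difference between 2 clones cannot be told apart. No source says that the replicates were separate cultures. The p-values then measure only the spread between these libraries, which may be technical.

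Ubiquitin is passed from an activating enzyme (E1) to a conjugating enzyme (E2), which works with a ligase (E3) to place it on a target protein. The E2 largely sets the kind of chain that is built, and some Ube2 enzymes carry the relatives NEDD8 or ISG15 in place of ubiquitin. Ubiquitin-specific proteases are the largest family of deubiquitinases and take the modifier off again. In macrophages, chains made after TLR4 is engaged carry the signal to NF-κB, and interferon made in response to LPS induces the ISG15 system.

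Libraries held a total of 457695 to 495373 FPKM, and 10119 to 10619 genes reached 1 FPKM. An estimate of relative depth from the value steps of only 4 short genes ran from 0.975 to 1.01. Read totals are not given, so no counting error can be stated. Over all tested genes, Pearson's r was 0.993 to 0.996 within a group, 0.977 to 0.986 between lines under the same treatment, and 0.806 to 0.866 between treatments of the same line. Dclk1 was at 0.01 FPKM in 3 untreated libraries (control 1 and 2, shDCLK1 1) and listed at 0 in the other 9, so the knockdown cannot be checked here and the groups rest on their labels. All 8 macrophage markers were measured. Their summed level was 986 to 989 FPKM in untreated control libraries, 1098 to 1113 with LPS, 1630 to 1675 in untreated shDCLK1 libraries and 1941 to 2031 with LPS. Among them Lyz2 was at 97.3 FPKM in untreated control and 642 FPKM in untreated shDCLK1 cells (means of 3). The markers did not all move with their sum. For LPS in control cells 6 were called higher and 2 lower by the test given below. The 2 were Csf1r, from a mean of 246.8 to 15.8 FPKM, and Cd68, from 318.7 to 226.3 FPKM. Between untreated lines 6 were called higher and 1 lower in shDCLK1 cells, with Adgre1 at 14.45 FPKM in control and 9.83 FPKM in shDCLK1 cells. No fibroblast, epithelial or lymphocyte marker passed the filter, with the highest of each at 0.27 (Col1a1), 0.4 (Krt8) and 1.3 FPKM (Pax5). The extraction protocol speaks of RNA from an adipose type, unlike the other labels; of 5 adipocyte markers, chosen after the data were seen, Cidec and Plin1 were in the table, each at no more than 0.03 FPKM. S100a8, of the neutrophil and mast cell markers, was listed at 0 in untreated means and reached 4.37 FPKM in a library with LPS.

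The families were abundant but uneven. FPKM is a value per transcript length, so levels of different genes can be set side by side. Over the 12 libraries the highest Ube2 gene was Ube2s, a partner of the anaphase-promoting complex, at a mean of 230.2 FPKM. It was followed by Ube2d3, which serves many ligases, at 169.7 FPKM and Ube2m, the main NEDD8 conjugating enzyme, at 110.9 FPKM. The highest Usp gene was Usp18, which removes ISG15, at 306.5 FPKM, a mean that its 2 LPS groups set. Usp25 followed at 65.2 FPKM and Usp14, the proteasome-bound deubiquitinase, at 53.4 FPKM. The summed Ube2 level was 1785 ± 5.93 FPKM in untreated control cells (mean ± SD, n = 3, as elsewhere) and 1530 ± 17.1 FPKM with LPS. In shDCLK1 cells the same sums were 1780 ± 49.4 and 1533 ± 7.15 FPKM. The summed Usp level went the other way, from 848.9 ± 9.53 to 1215 ± 6.87 FPKM in control and from 903.7 ± 10.9 to 1346 ± 23.8 FPKM in shDCLK1 cells. Without Usp18, a division made after its values were seen, the Usp sum was 830.5 ± 9.41 FPKM untreated and 718.2 ± 10.4 FPKM with LPS in control cells, and 810.8 ± 11.2 and 727.3 ± 7.45 FPKM in shDCLK1 cells. A single gene therefore carried the direction of the Usp sum. Large single changes lay within the Ube2 sum too. With LPS, Ube2s went from a mean of 310.1 to 155.1 and Ube2c from 166.2 to 11.9 FPKM in control cells. In shDCLK1 cells they went from 284.9 to 170.5 and from 143.7 to 21.2 FPKM. Of the 32 Ube2 genes 22 changed below 0 and 10 above 0 in each line, so the lower sum is not shared by all.

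**Figure D1:**
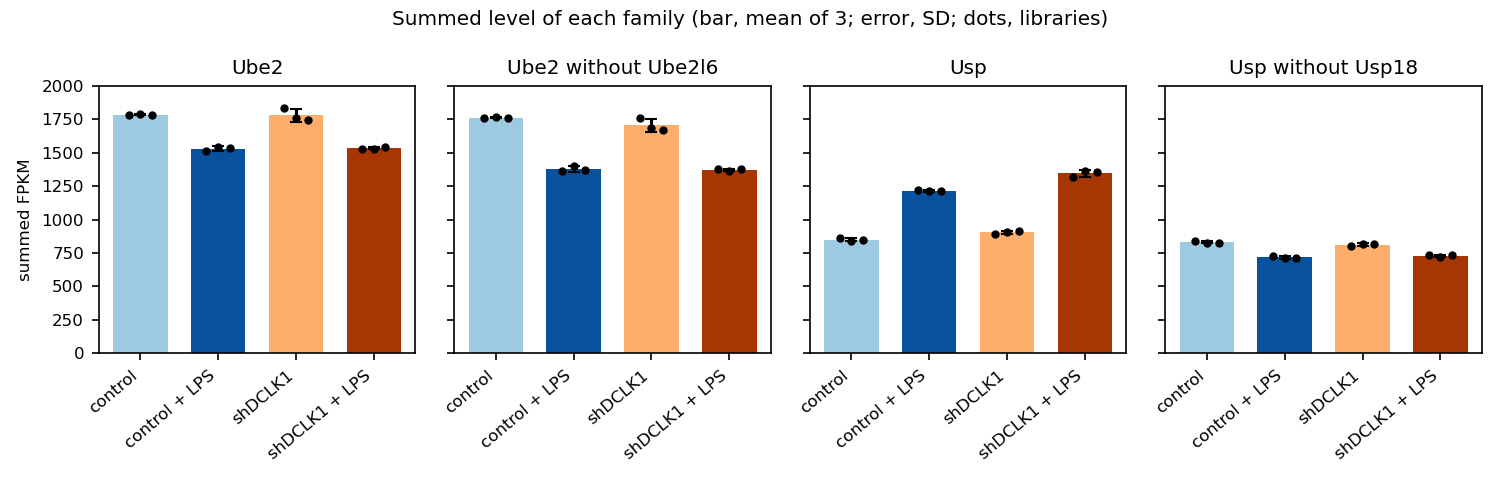
Summed FPKM of the 32 Ube2 and the 42 Usp genes in each group, with and without the most changed interferon-linked gene of each family; bars are means of 3 libraries, error bars SD and dots single libraries. The Usp sum is higher with LPS in both lines, and lower with LPS once Usp18 is left out.

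The first comparison asked how control cells answered LPS. Changes are given as differences in log2(FPKM + 1), which understates the change of low genes, and calls were made in limma over all 11052 genes tested, where the adjusted p had to be below 0.05. Of the Ube2 genes 7 of 32 were called higher and 19 lower, and of the Usp genes 10 of 42 higher and 24 lower. Together 81.1% of members were called, against 86.9% of all genes tested, of which 24.8% were higher and 62.1% lower. The median change was -0.15 log2 units over Ube2, -0.31 over Usp and -0.38 over all genes, so the families moved with the whole table or slightly less. At a change of at least 1 log2 unit, 4 members were higher (5.41%, against 8.30% of all genes) and 10 were lower (13.5%, against 21.5%). Median-of-ratios scaling, which sets the median gene near 0, moved the median of all genes from -0.38 to -0.01 log2 units in control cells and made 42.6% of all genes higher and 42.8% lower. Under the deposited values and 3 scalings (median of ratios, equal sums and quantile normalization), 15 members were called higher in every case and 26 lower (7 and 10 Ube2, 8 and 16 Usp), and the sign of 27 turned in at least 1 of them. Members of the first 2 kinds are described as risen or fallen, and values alone are given for the rest. How many of all genes kept their call, or turned sign, across the scalings was not computed, here or below. The counts across scalings therefore cannot be set against those of all genes. After median-of-ratios scaling alone, 22 of 32 Ube2 and 19 of 42 Usp genes were called higher, against 42.6% of all genes. Of the Ube2 genes 10 were called lower there, against 42.8% of all genes. Whether the families differ from other genes was not tested. In bulk RNA, fewer cells of a state and less RNA per cell cannot be told apart.

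The 2 members of the ISG15 pathway were the most raised of their families. Usp18, the protease that takes ISG15 off proteins and holds back interferon receptor signalling, was at 18.6, 17.4 and 19.3 FPKM in the untreated control libraries and at 492.6, 495.4 and 501 FPKM with LPS. The groups stood far apart, with the mean 26.9-fold higher with LPS (4.68 log2 units, SE 0.0416, adjusted p = 6.51e-17). Ube2l6, the ISG15 conjugating enzyme, was at 22.1, 24.4 and 23.2 FPKM untreated and at 149, 146 and 161 FPKM with LPS. The groups did not overlap, and the mean rose 6.54-fold (2.66 log2 units, SE 0.0467, adjusted p = 1.68e-14). The other genes of the pathway rose with them: all 6 of 6 listed, which include these 2 members, were called higher. Isg15, the modifier, went from a mean of 19.6 to 1046 FPKM, Uba7, its activating enzyme, from 8.67 to 79.4 FPKM and Herc6, its ligase in mouse, from 1.98 to 39.9 FPKM. All 22 listed type I interferon response genes were called higher too, with a median of 4.53 log2 units. Their part in the rise of Usp18 and Ube2l6 was not tested.

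Usp25 and Ube2e2 were the other members raised by at least 1 log2 unit. Usp25, a protease that acts on TRAF proteins in innate immune signalling, was at 26.6, 26.6 and 27.2 FPKM untreated and at 98.2, 95.4 and 94.6 FPKM with LPS. All 3 LPS libraries were more than 3 times the untreated ones, and the change was 1.81 log2 units (SE 0.0319, adjusted p = 1.75e-14). Ube2e2, of the closely related Ube2e enzymes, was at 3.39, 4.54 and 4.57 FPKM untreated and at 11.8, 11.1 and 12.6 FPKM with LPS. It rose by 1.32 log2 units (SE 0.0889, adjusted p = 1.17e-08), with the first untreated library standing lower than the other 2. Its relatives parted ways, with Ube2e1 at +0.30 and Ube2e3 at -0.80 log2 units, both called. Smaller rises were called for Usp12 (0.66), Usp35 (0.50), Usp32 (0.50), Usp9x (0.46), Ube2f (0.38), Ube2z (0.38) and Ube2d3 (0.38 log2 units). Ube2f is a NEDD8 conjugating enzyme, and Ube2z takes ubiquitin from the activating enzyme Uba6. Uba6 itself rose from 15.2 to 30.2 FPKM. Usp35 was at 0.57 to 0.65 FPKM untreated and at 1.19 to 1.36 FPKM with LPS. It reached 1 FPKM only in LPS libraries of either line, and Usp2 and Ube2cbp only in untreated ones, so these 3 members passed the filter through the treatment in which they are high and their calls are descriptions.

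The most lowered Ube2 genes, Ube2c and Ube2t, serve cell division and DNA repair. Ube2c, which starts ubiquitin chains for the anaphase-promoting complex, was at 166.7, 165.7 and 166.2 FPKM untreated and at 11.3, 12.1 and 12.3 FPKM with LPS. The groups were separated by more than a factor of 10, and the change was -3.70 log2 units (SE 0.0567, adjusted p = 4.49e-15). Ube2s, which extends those chains, fell less, from 306, 315.9 and 308.4 FPKM to 153.3, 156.3 and 155.8 FPKM (-0.99 log2 units, SE 0.0333, adjusted p = 9.05e-12). Ube2t, the conjugating enzyme of the Fanconi anaemia DNA repair pathway, was at 18.2, 18.9 and 16.3 FPKM untreated and at 0.72, 0.85 and 1.18 FPKM with LPS. Only the third LPS library stayed above 1 FPKM, and the change was -3.30 log2 units (SE 0.0891, adjusted p = 1.05e-12). Usp1, which removes the ubiquitin that Ube2t places on Fancd2, was at 58.6, 58.2 and 58.9 FPKM untreated and at 16.7, 15.2 and 16 FPKM with LPS, a change of -1.81 log2 units (SE 0.0335, adjusted p = 2.66e-14). Writer and eraser of this mark thus fell in the same libraries. Usp37, which counters the anaphase-promoting complex on cyclin A, fell by 0.77 log2 units.

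The pathways that these enzymes serve were lower as well. All 10 listed Fanconi genes were called lower, with a median of -1.76 log2 units, and Fancd2, the shared substrate, went from a mean of 9.87 to 0.327 FPKM. Of the 16 listed genes of the anaphase-promoting complex 14 were called lower and 1 (Anapc10) higher, and 10 lower and 4 higher after median-of-ratios scaling. The interferon, ISG15, Fanconi and cell cycle counts for LPS were the same under all 3 scalings in both lines. Its activator Cdc20 went from 78.8 to 3.49 FPKM. All 20 listed cell cycle genes were called lower, with a median of -3.55 log2 units. Their part in the falls of Ube2c, Ube2t, Ube2s and Usp1 was not tested. Counting strand is not stated, and Ube2c shares 592 exonic bases with Tnnc2 and Ube2s shares 183 with Rpl28, each on the opposite strand (GENCODE M21), so both are uncertain to that extent. In all, 26 of the 74 members share exonic bases with another gene, 23 of them with a gene on the opposite strand. Larger overlaps include those of Usp14 with Thoc1 (2169 bases) and Ube2l3 with Ydjc (1670 bases), on the opposite strand. Ube2v1 shares 1673 bases with Gm20431 on the same strand. The levels of these members carry the same uncertainty.

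Promoter sequences of Ube2c, Ube2t and Ube2s, which fell together, and of Ube2l6, which rose, are shown because they hold unlike sets of short motifs. Each window runs from 250 bases before to 50 after the gene's start in RefSeq on GRCm38.p6, 300 bases, 5′ to 3′ on the gene's strand. Capitals mark matches to CCAAT (the CCAAT box, ATTGG on the other strand) and to TTTGAA or TTCGAA (cell cycle homology region cores) on either strand.
Ube2c, chr2:164769679-164769978, plus strand: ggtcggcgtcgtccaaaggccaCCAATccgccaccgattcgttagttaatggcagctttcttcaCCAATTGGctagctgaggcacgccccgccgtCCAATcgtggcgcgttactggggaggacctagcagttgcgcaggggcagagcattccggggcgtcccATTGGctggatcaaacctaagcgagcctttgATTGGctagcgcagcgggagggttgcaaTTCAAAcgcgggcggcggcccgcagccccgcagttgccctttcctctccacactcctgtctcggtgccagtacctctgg
Ube2t, chr1:134962315-134962614, plus strand: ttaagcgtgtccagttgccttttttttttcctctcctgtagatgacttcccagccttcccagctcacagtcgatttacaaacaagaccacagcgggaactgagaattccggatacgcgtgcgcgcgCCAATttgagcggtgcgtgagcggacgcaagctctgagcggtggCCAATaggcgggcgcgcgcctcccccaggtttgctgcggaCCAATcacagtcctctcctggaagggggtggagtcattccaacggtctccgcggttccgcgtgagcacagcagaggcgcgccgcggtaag
Ube2s, chr7:4812291-4812590, minus strand: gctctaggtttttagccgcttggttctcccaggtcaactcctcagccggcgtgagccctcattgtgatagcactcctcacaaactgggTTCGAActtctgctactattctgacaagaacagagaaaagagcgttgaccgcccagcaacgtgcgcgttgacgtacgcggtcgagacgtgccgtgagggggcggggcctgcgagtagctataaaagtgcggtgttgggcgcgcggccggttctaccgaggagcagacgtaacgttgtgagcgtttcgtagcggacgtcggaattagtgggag
Ube2l6, chr2:84798578-84798877, plus strand: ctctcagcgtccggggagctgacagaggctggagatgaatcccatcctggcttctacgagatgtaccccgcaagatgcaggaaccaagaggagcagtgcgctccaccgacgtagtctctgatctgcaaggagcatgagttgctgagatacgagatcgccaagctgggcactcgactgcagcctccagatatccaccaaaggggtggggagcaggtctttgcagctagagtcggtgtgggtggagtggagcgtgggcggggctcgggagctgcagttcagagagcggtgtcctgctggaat
The Ube2c window holds 6 CCAAT matches, of which 2 overlap each other, and 1 TTTGAA match. The Ube2t window holds 3 CCAAT matches, the Ube2s window 1 TTCGAA match and the Ube2l6 window none of the motifs searched.

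Windows were found for 57 of the 74 members, 69 in all. Usp18 and Usp1 were among the 17 members without a window, so their promoters were not searched. At least 3 CCAAT matches stood in 3 of the 36 Ube2 windows (8.33%), those of Ube2c, Ube2t and Ube2f, in none of the 33 Usp windows and in 3.37% of all 32851 windows. Ube2f was among the genes that rose. At least 1 CCAAT match stood in 16.7% of Ube2, 18.2% of Usp and 37.4% of all windows. TTTGAA stood in 8.33% of Ube2, 3.03% of Usp and 17.9% of all windows, and TTCGAA in 2.78%, 3.03% and 1.56%. The core of the interferon-stimulated response element (GAAA, 2 bases of any kind, GAAA) stood in 1 Usp window (Usp49), no Ube2 window and 3.44% of all windows. A site of the κB type (GGGA, 1 base of any kind, TTTCC) stood in no member's window and in 0.411% of all. A match is a run of letters in this window and no evidence of binding.

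Among the proteases with other roles, Usp2, a deubiquitinase of cyclin D1 and of clock proteins, nearly lost its signal. It was at 11.9, 13.3 and 12.9 FPKM in untreated control libraries and at 0.33, 0.24 and 0.31 FPKM with LPS. The untreated mean was 43.4 times that with LPS (-3.41 log2 units, SE 0.0766), a fold that rests on a mean of 0.293 FPKM with LPS. Usp2 passed the filter only through untreated libraries, so its fall is a description and no p-value is given. Usp28, the closest relative of Usp25, went from 14.2, 13.6 and 13.1 to 4.32, 4.05 and 3.94 FPKM, a change of -1.52 log2 units (SE 0.0457, adjusted p = 3.02e-12). The 2 relatives thus went in opposite directions. Usp46 fell by 1.43 log2 units (SE 0.0519, adjusted p = 2.08e-11), while Usp12, its closest relative, which shares the activators Wdr48 and Wdr20, was among those that rose. Wdr48 was at 19.5 FPKM untreated and 13 FPKM with LPS, and Wdr20 at 8.86 and 7.71 FPKM. The other members past 1 log2 unit were Usp6nl (-1.27), Usp20 (-1.26), Usp36 (-1.24), a nucleolar protease, and Usp49 (-1.13), which acts on histone H2B and shares 4392 exonic bases with Gm20517 on the same strand. Usp20, Usp36 and Usp49 were named after their values were seen.

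Enzymes with general roles were mixed. Ube2n and its partner Ube2v1, which build the K63-linked chains of TLR signalling, changed by -0.11 and -0.32 log2 units, but by +0.30 and +0.11 after median-of-ratios scaling. Ube2v2, the other partner of Ube2n, was at 9.34 ± 0.34 FPKM untreated and 9.79 ± 0.346 FPKM with LPS. Ube2l3, which serves the linear-chain ligase, was at 74.6 ± 1.04 and 74.7 ± 2.14 FPKM. Ube2m, of NEDD8 conjugation, was at 112.8 ± 5.96 and 109.7 ± 4.22 FPKM. Of the conjugating enzymes of protein quality control at the endoplasmic reticulum, Ube2g1 fell by 0.64 log2 units, and Ube2j1 was at 25.9 ± 1.10 and 24.1 ± 0.573 FPKM. After median-of-ratios scaling every Ube2 gene was called for LPS in control cells (22 higher and 10 lower of 32), including those given here by level. Of all genes 42.6% were higher and 42.8% lower under that scaling. Of the broadly acting proteases, Usp7, which acts on Mdm2 and p53, fell by 0.60 and Usp10 by 0.76 log2 units. Usp8 (endosomes) was at 37.8 ± 1.18 and 38.8 ± 0.842 FPKM, and Usp14 (proteasome) at 54.7 ± 1.27 and 52.9 ± 1.75 FPKM.

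**Figure D2:**
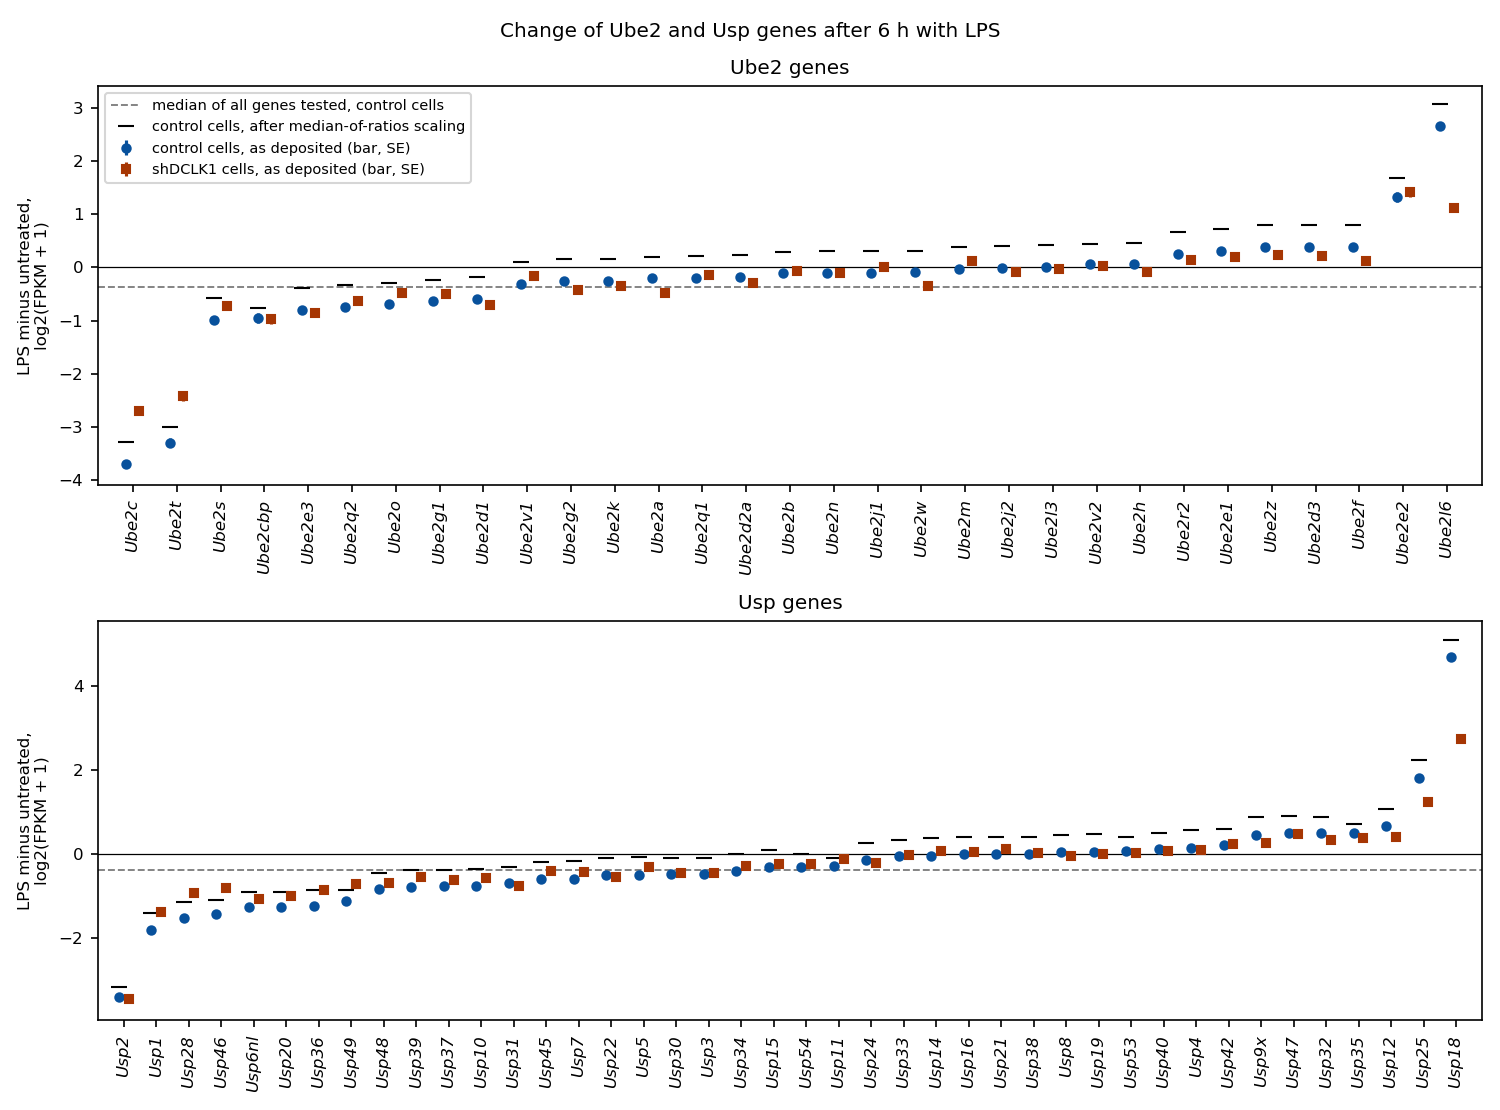
LPS minus untreated difference in log2(FPKM + 1) of each Ube2 gene but 1 (upper) and each Usp gene (lower), ordered by control cells; circles are control and squares shDCLK1 cells (bars, SE, mostly within the marker), dashes control cells after median-of-ratios scaling, and the dashed line the median of all 11052 genes in control cells (-0.38). Most genes lie between -1 and 0.5, and Usp18, Ube2l6, Usp25 and Ube2e2 stand above 1 in both lines.

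Families beside Ube2 and Usp were also mixed, with splits that depended on scaling. Of the 14 measured OTU deubiquitinases 3 were called higher and 7 lower in control cells, and Tnfaip3 (A20), which edits chains in NF-κB signalling, went from 7.21 to 104.1 FPKM. After median-of-ratios scaling 8 OTU genes were called higher and 3 lower. Of 5 UCH proteases 1 was higher and 4 lower, of 11 JAMM proteases 4 were higher and 6 lower, and of 10 measured activating enzymes 4 were higher and 5 lower. After the same scaling these were 1 and 2 UCH, 7 and 1 JAMM and 6 and 3 activating enzyme genes. Of 13 modifier genes 8 were higher and 5 lower (10 and 2 after scaling). Of 7 conjugating enzyme relatives with other names 1 was higher and 4 lower, of 7 Josephin, MINDY and ZUP1 proteases 2 and 4, and of 9 CYLD, SUMO and NEDD8 proteases 2 and 6. Of 12 listed partners of Usp proteins 4 were higher and 8 lower, and of 16 genes of K63 and linear chain signalling 7 and 5. In the same order, scaling gave 4 and 2, 4 and 3, 4 and 5, 6 and 5, and 12 and 3.

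The second comparison asked the same of shDCLK1 cells, with its own untreated and LPS libraries. Of the Ube2 genes 8 were called higher and 18 lower, and of the Usp genes 10 higher and 23 lower. That is 24.3% of members higher and 55.4% lower, against 24.9% and 59.7% of all genes, of which 84.6% were called in either direction. The median change was -0.15 over Ube2, -0.23 over Usp and -0.29 over all genes. Past 1 log2 unit there were 4 members higher (5.41%, against 6.89%) and 5 lower (6.76%, against 15.5%). Under all scalings 12 members were called higher and 26 lower, and the sign of 24 turned.

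The same 4 genes rose by at least 1 log2 unit. Usp18 was at 93.3, 89.5 and 95.7 FPKM untreated and at 586.8, 643.4 and 624.4 FPKM with LPS, 2.72 log2 units higher (SE 0.0416, adjusted p = 1.17e-14). Ube2l6 was at 76.2, 72.5 and 72 FPKM untreated and at 152.7, 163.9 and 163.9 FPKM with LPS, 1.11 log2 units higher (SE 0.0467, adjusted p = 1.28e-10). Both started from a higher level than in control cells, and Usp18 also ended at a higher one. Usp25 was at 40.4, 42 and 40.4 FPKM untreated and at 92.8, 99.6 and 98.7 FPKM with LPS (1.22 log2 units, SE 0.0319, adjusted p = 1.19e-12). Ube2e2 rose from 4.61 ± 0.228 to 14 ± 1.14 FPKM (1.42 log2 units, SE 0.0889, adjusted p = 7.08e-09). Usp47 and Usp12 were called higher by 0.48 and 0.40 log2 units. All 6 ISG15 pathway genes and all 22 interferon genes were called higher in these cells too, with medians of 2.31 and 2.40 log2 units.

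The most lowered genes were again Usp2, Ube2c and Ube2t. Ube2c was at 157.3, 142.5 and 131.3 FPKM untreated and at 21.2, 22.1 and 20.2 FPKM with LPS, a change of -2.70 log2 units (SE 0.0567, adjusted p = 1.6e-13). Ube2t was at 17.7, 17 and 17 FPKM untreated and at 2.07, 2.68 and 2.45 FPKM with LPS, a change of -2.43 (SE 0.0891, adjusted p = 3.32e-11). All 3 LPS libraries kept Ube2t above 2 FPKM. Usp2 was at 13.2, 13.5 and 13.2 FPKM untreated and at 0.46, 0.33 and 0.16 FPKM with LPS, a change of -3.45 (SE 0.0766), again a description. Usp1 changed by -1.38, Usp6nl by -1.08, Usp20 by -0.99, Ube2cbp by -0.97, Usp28 by -0.93, Ube2e3 by -0.86, Usp46 by -0.80 and Ube2s by -0.74 log2 units, all called. Ube2cbp, like Usp2, passed the filter only through untreated libraries, so its call is a description. All 10 Fanconi and all 20 cell cycle genes were called lower, with medians of -1.32 and -2.60 log2 units, and of 16 genes of the anaphase-promoting complex 13 were lower and 2 higher (9 and 4 after median-of-ratios scaling).

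**Figure D3:**
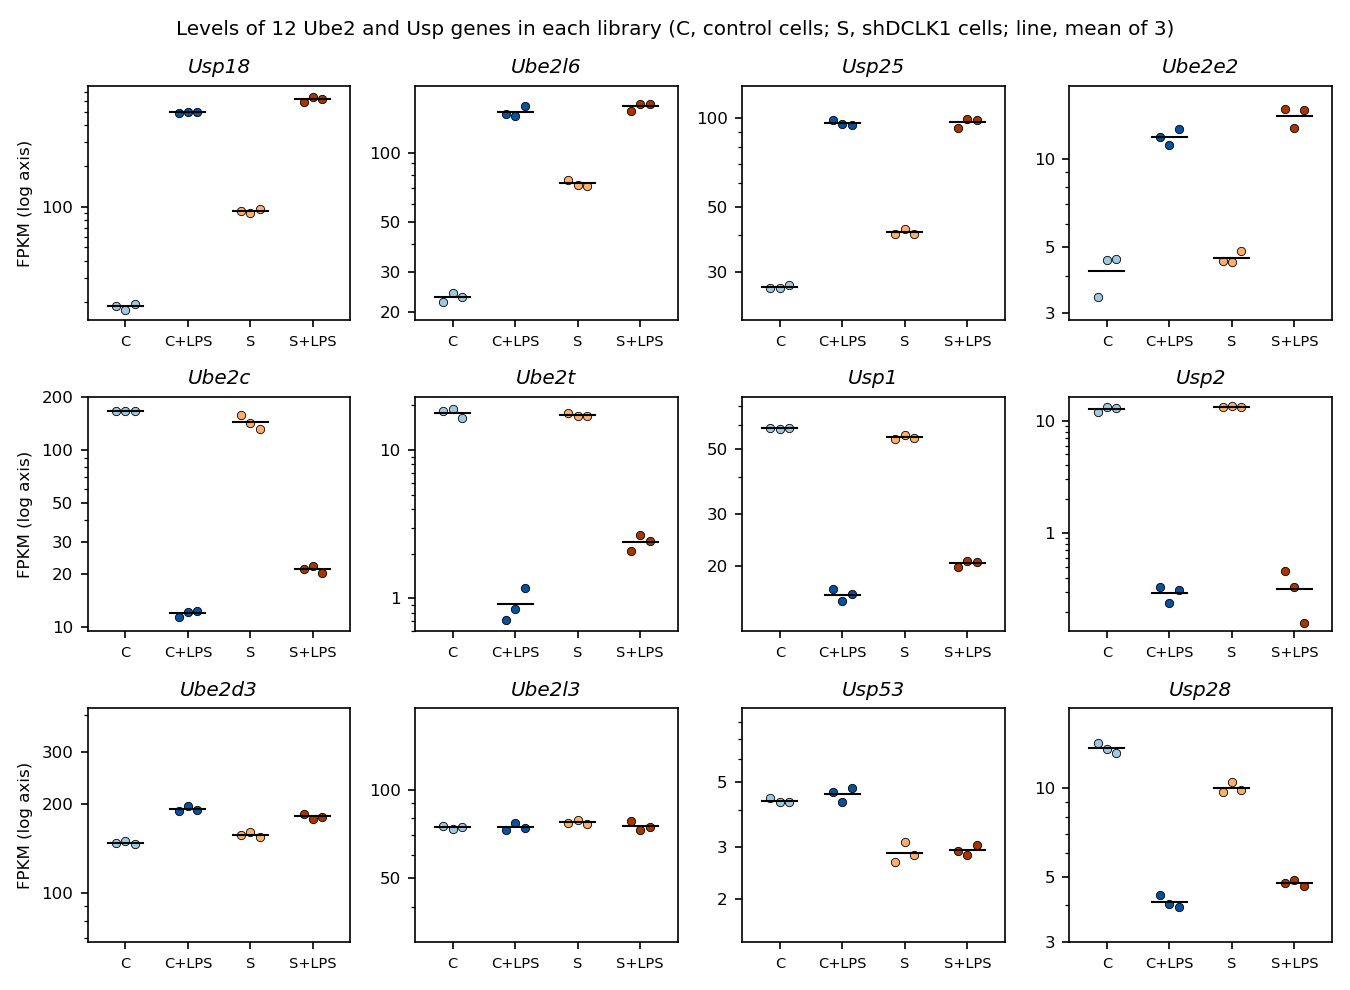
FPKM of 12 members in every library on log axes (C, control; S, shDCLK1; dots, libraries; lines, means of 3). Usp18, Ube2l6 and Usp25 are higher in untreated shDCLK1 than in untreated control libraries, Ube2c and Ube2t are higher in shDCLK1 than in control libraries with LPS, and Ube2l3 is level on these deposited values.

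The third comparison asked whether the lines differed before LPS. It shares its libraries with the comparisons above, so its values are not independent of theirs. Relative to control cells, untreated shDCLK1 cells had 4 Ube2 genes called higher and 7 lower, and 7 Usp genes higher and 13 lower. That is 14.9% of members higher and 27.0% lower, against 21.4% and 23.6% of all genes (45.0% in either direction). The medians were 0.00 over Ube2, -0.04 over Usp and -0.02 over all genes. Past 1 log2 unit 2 members were higher (2.70%, against 1.68% of all genes) and none lower (0.190% of all genes). The 7 Usp genes called higher became 3 without the first untreated control library or the third untreated shDCLK1 library, and 4 without the second untreated library of either line. Of all genes, 19.1% to 19.5% were called higher in these fits, against 21.4% in the main fit. Rescaling kept 8 members higher and 16 lower in every case, and 6 turned sign.

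The 2 ISG15 genes and Usp25 stood out from the rest. Usp18 was 5.04-fold higher in untreated shDCLK1 cells (means of 92.9 and 18.4 FPKM, 2.27 log2 units, SE 0.0416, adjusted p = 8.33e-13). Ube2l6 was 3.17-fold higher (73.6 and 23.2 FPKM, 1.62 log2 units, SE 0.0467, adjusted p = 4.55e-11). Usp25 was 1.53-fold higher (40.9 and 26.8 FPKM, 0.60 log2 units, SE 0.0319, adjusted p = 1.87e-08). For each of the 3, the lowest shDCLK1 library lay above the highest control library. All 6 ISG15 pathway genes and all 22 interferon genes were called higher in untreated shDCLK1 cells, with medians of 1.59 and 1.66 log2 units, and Isg15 was at a mean of 101.5 FPKM against 19.6 FPKM. The part of the interferon genes in these differences was not tested. Small increases were called for Ube2g2 (0.19), an enzyme of degradation at the endoplasmic reticulum, and Ube2a (0.18 log2 units), a Rad6 homologue.

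Falls between untreated lines were all under 0.5 log2 units. Usp53 was at 4.41, 4.27 and 4.29 FPKM in control and at 2.67, 3.12 and 2.83 FPKM in shDCLK1 libraries. No value overlapped, and the difference was -0.46 log2 units (SE 0.0555, adjusted p = 3.00e-05). Usp28 was lower by 0.41, Usp37 by 0.29, Ube2o, a large enzyme that acts as both E2 and E3, by 0.28, Usp39, a spliceosome protein without protease activity, by 0.25, Ube2g1 by 0.22, Ube2c by 0.21 and Ube2h, the partner of the CTLH ligase, by 0.19 log2 units. Ube2t was level, at 17.8 ± 1.36 and 17.2 ± 0.439 FPKM (-0.04 log2 units, SE 0.0891, adjusted p = 0.741). Of the 20 cell cycle genes 15 were called lower and 1 (Rrm2) higher, with a median of -0.20 log2 units. Of the 10 Fanconi genes 3 were called lower.

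The fourth comparison set shDCLK1 against control cells when both had received LPS. Of the Ube2 genes 3 were called higher and 8 lower, and of the Usp genes 11 higher and 8 lower. That is 18.9% of members higher and 21.6% lower, against 34.3% and 14.3% of all genes (48.6% in either direction). Rescaling changed that split for the table as well, to 23.3% higher and 26.2% lower under median-of-ratios scaling. Only 7 members were called higher and 9 lower in every scaling, and 28 turned sign. No member was past 1 log2 unit in this comparison, where 1.38% of all genes were higher and 0.416% lower by that much. The 8 lower Usp genes became 3 without the first control LPS library and 5 without the second control, the first shDCLK1 or the third shDCLK1 LPS library. The 8 lower Ube2 genes became 5 without the second LPS library of either line, and the 3 higher ones became 5 without the second shDCLK1 LPS library. Of all genes, 12.1% to 13.6% were called lower in these fits, against 14.3% in the main fit. Without the second shDCLK1 LPS library 32.8% were called higher, against 34.3%.

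Ube2t and Ube2c had the highest differences of all members here. Ube2t was at 2.07 to 2.68 FPKM in shDCLK1 and at 0.72 to 1.18 FPKM in control libraries with LPS (0.83 log2 units, SE 0.0891, adjusted p = 9.34e-06). Ube2c was at 20.2 to 22.1 FPKM and at 11.3 to 12.3 FPKM (0.78 log2 units, SE 0.0567, adjusted p = 3.01e-07). Neither gene overlapped between the lines. Usp46 was 1.59-fold higher (0.50 log2 units, SE 0.0519, adjusted p = 6.58e-06) and Usp1 1.28-fold higher (0.34 log2 units, SE 0.0335, adjusted p = 4.91e-06). Of the 20 cell cycle genes 19 were called higher and none lower in shDCLK1 cells with LPS, with a median of 0.78 log2 units, and of the 10 Fanconi genes 8 were called higher (4 higher and 1 lower after quantile normalization). Their part in the differences of Ube2t, Ube2c and Usp1 was not tested. Further differences were called for Usp20 (0.36), whose call was lost after quantile normalization (adjusted p = 0.0580), and for Ube2s (0.14 log2 units), whose call was lost after median-of-ratios scaling. Usp28, lower in untreated shDCLK1 cells, was called higher with LPS by 0.18 log2 units, a call lost after median-of-ratios scaling and quantile normalization.

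The interferon-linked members had come close together. Usp18 remained higher in shDCLK1 cells, at 586.8 to 643.4 against 492.6 to 501 FPKM (0.32 log2 units, SE 0.0416, adjusted p = 5.59e-05). Ube2l6 was at 160.2 ± 6.49 in shDCLK1 and 152 ± 8.24 FPKM in control cells (0.08 log2 units, SE 0.0467, adjusted p = 0.206). Usp25 was at 97 ± 3.67 and 96.1 ± 1.92 FPKM (0.01 log2 units, SE 0.0319, adjusted p = 0.752). Of the 22 interferon genes 2 were called higher and 10 lower. Lower in shDCLK1 cells were Usp53 (-0.50 log2 units, SE 0.0555, adjusted p = 1.3e-05), which was not called for LPS in either line on the deposited values, Ube2h (-0.33), Usp32 (-0.22) and Ube2z (-0.22). Tnfaip3, of the OTU family, was at 42.5 FPKM in shDCLK1 and 104.1 FPKM in control cells with LPS, and of the 14 OTU genes 1 was called higher and 6 lower (none and 9 after median-of-ratios scaling).

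**Figure D4:**
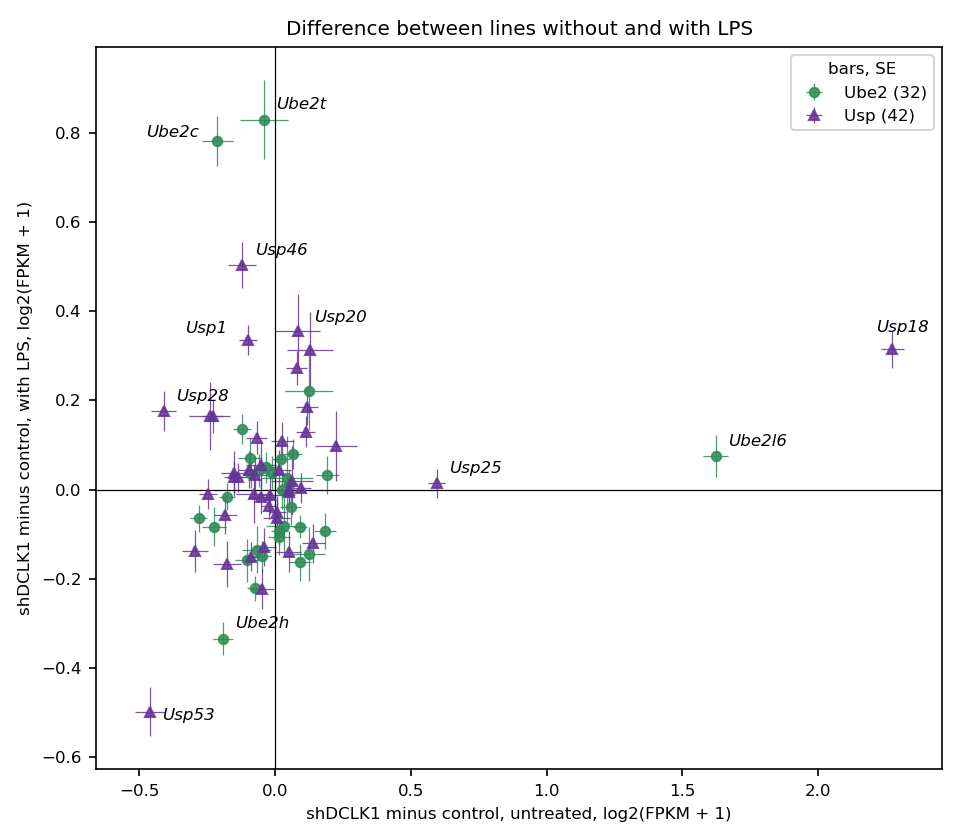
Difference between lines in log2(FPKM + 1) without LPS (x axis) and with LPS (y axis) for 32 Ube2 and 42 Usp genes; bars are SE. Usp18 and Ube2l6 lie farthest to the right, with Usp18 at 0.32 and Ube2l6 at 0.08 on the y axis; Ube2t, Ube2c and Usp46 lie highest, at 0.83, 0.78 and 0.50, and Usp53 and Ube2h are lower on both.

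The last comparison tested whether the LPS change itself differed between the lines, as the change in shDCLK1 minus that in control cells. Positive values were called for 6 Ube2 and 11 Usp genes and negative ones for 8 Ube2 and 5 Usp genes. That is 23.0% of members above 0 and 17.6% below, against 32.6% and 16.9% of all genes (49.4% in either direction). Median-of-ratios scaling changed the table's split to 22.9% and 23.6%. In every scaling 9 members were called above 0 and 12 below, and 12 turned sign. The medians were -0.03 over Ube2, 0.05 over Usp and 0.09 over all genes. The 5 negative Usp calls became 3 without the third untreated control, the first control LPS, the second untreated shDCLK1 or the third untreated shDCLK1 library. Of all genes, 15.7% to 15.8% were called below 0 in these fits, against 16.9% in the main fit.

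The 2 ISG15 genes had the largest negative differences, and they were the only members past 1 log2 unit (2.70% of members, against 1.98% of all genes below -1; no member was above 1, where 1.73% of all genes were). The LPS change of Usp18 was smaller in shDCLK1 cells by 1.96 log2 units (SE 0.0589, adjusted p = 1.20e-10) and that of Ube2l6 by 1.55 log2 units (SE 0.0661, adjusted p = 3.20e-09). Usp25 followed, smaller by 0.58 log2 units (SE 0.0451, adjusted p = 5.91e-07). The untreated levels of these 3 genes differed between lines and the levels with LPS did so little or not at this threshold. All 22 interferon genes and all 6 ISG15 pathway genes were called below 0, with medians of -1.92 and -1.37 log2 units. Lesser negative values were called for Ube2a (-0.28), Ube2w (-0.27), Usp12 (-0.26) and Ube2f (-0.25 log2 units). Ube2a went from a mean of 22.0 to 19 FPKM with LPS in control and from 25.1 to 17.7 FPKM in shDCLK1 cells, and Ube2w from 11.5 to 10.8 and from 12.6 to 9.66 FPKM.

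Positive differences were led by genes that fell less in shDCLK1 cells. They were 0.99 log2 units for Ube2c (SE 0.0802, adjusted p = 8.23e-07), 0.87 for Ube2t (SE 0.126, adjusted p = 0.000119), 0.62 for Usp46 (SE 0.0734, adjusted p = 2.19e-05) and 0.59 for Usp28 (SE 0.0646, adjusted p = 1.25e-05). Usp1 followed at 0.44, Usp49 at 0.41, Usp36 at 0.39, Ube2s at 0.26 and Ube2o at 0.22 log2 units, all called, with Usp49 not called after quantile normalization (adjusted p = 0.0691). Of the 20 cell cycle genes 19 were called above 0, with a median of 1.02 log2 units, and of the 10 Fanconi genes 7 were (5 after quantile normalization). Their part in these differences was not tested. The LPS change of Usp2 was -3.41 in control and -3.45 in shDCLK1 cells, a difference of -0.04 log2 units (SE 0.108). Usp2 passed the filter only through untreated libraries, so this is a description and no p-value is given. With LPS it was at 0.16 to 0.46 FPKM over both lines. At such levels log2(FPKM + 1) can hardly tell unlike folds apart, so an equal fall cannot be read from it. Ube2j2, Ube2l3, Ube2v2, Usp14, Usp19, Usp33 and Usp38 were called in none of the 5 comparisons on the deposited values, with group means of 74.6 to 77.4 FPKM for Ube2l3 and 10.6 to 10.8 FPKM for Usp38.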

How the data were processed

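The deposited table holds FPKM per gene with 2 decimals, made by the authors, for 18190 genes in 12 libraries of RAW264.7 cells. Tools listed in the submitters' processing notes are HISAT2 2.0, StringTie 1.3.0 and Bowtie 0.12.2, and the notes list mm9 and mm8 as builds, without roles. Annotation, use of strand and filters are not given in the sources used here, so no member is given coordinates of the authors' build. Groups follow the labels. Symbols that a spreadsheet had turned into dates were restored for 27 genes from their Entrez IDs, and an unnamed column with 18 entries was not used.

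A gene was tested if at least 3 libraries held it at 1 FPKM or above. The fit to log2(FPKM + 1) used limma 3.58.1 in R 4.3.3, with a mean for each group, all 12 libraries and a mean trend. P-values are two-sided and Benjamini-Hochberg adjusted over the 11052 genes of a comparison. The fit was tested on simulated data. Figures were drawn with Python 3.11.15 and matplotlib 3.10.9. Alternatives were another pseudocount, other filters, scalings and fits, a replicate block and leaving out each library. Scaled counts of the other gene lists and the Usp sum without Usp18 were added after seeing the data. Same-numbered libraries of different groups deviated from their group means with r = -0.107 to 0.064 in 18 pairs. No shared effect of the numbers was thus seen, which cannot exclude that same-numbered libraries were handled together.

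The members, gene lists and comparisons were chosen with earlier results of these data known, and count as no independent support. Named members are, for each comparison and family, up to 5 called in each direction without overlap between groups, the 3 highest in level, those with a set role and those nearest the filter; a few others are marked as chosen after their values were seen, and not every gene the rule allows is printed. Promoters are RefSeq windows on GRCm38.p6, matched by Entrez ID, and overlaps of exons are from GENCODE M21. Protein sequences were not used here. The single values of 1 member are not reported here.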

Additional observations from a re-analysis of the deposited data

Results flagged for a closer look

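The LPS change differed between the lines for 16 of the members described (interaction term of the limma fit over all libraries, adjusted p from 1.20e-10 for Usp18 to 0.01997 for Ube2w). In all, 30 of 74 members were called (40.5%), against 49.4% of all genes tested, so being called is not particular to members. Values are the change in shDCLK1 cells minus that in control cells on the log2(FPKM + 1) scale.

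Below 0 were Usp18 at -1.96, Ube2l6 at -1.55, Usp25 at -0.58, Ube2a at -0.28, Ube2w at -0.27, Usp12 at -0.26 and Ube2f at -0.25 log2 units. Above 0 were Ube2c at 0.99, Ube2t at 0.87, Usp46 at 0.62, Usp28 at 0.59, Usp1 at 0.44, Usp49 at 0.41, Usp36 at 0.39, Ube2s at 0.26 and Ube2o at 0.22 log2 units.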

How the results depend on the processing

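Scaling moved the counts most, and the cause was not tested. For LPS in control cells, median-of-ratios scaling called 22 Ube2 genes higher and 10 lower and 19 Usp genes higher, and quantile normalization called 15 Ube2 and 20 Usp genes higher. These scalings made 42.6% and 39.6% of all genes higher and 42.8% and 44.9% lower. For LPS in shDCLK1 cells the former gave 17 Ube2 genes higher, 11 lower and 18 Usp genes higher, the latter 19 Usp genes higher, and equal sums 5 Ube2 genes higher; of all genes 41.2%, 38.4% and 22.0% were higher and 41.3%, 43.6% and 63.6% lower. Between lines with LPS, equal sums gave 5 Ube2 and 4 Usp genes lower. Median-of-ratios scaling gave 16 Ube2 genes lower and 7 Usp genes higher and 16 lower there, and quantile normalization 14, 5 and 15. Over all genes, equal sums, median of ratios and quantile normalization gave 35.8%, 23.3% and 21.3% higher and 12.5%, 26.2% and 24.8% lower. For the interaction, median-of-ratios scaling gave 13 Ube2 genes below 0 and 6 Usp genes above and 11 below, quantile normalization 7 and 9 Usp genes, and no filter, with more genes tested, 3 Usp genes below 0. Of all genes these put 22.9%, 24.5% and 19.4% above 0 and 23.6%, 21.7% and 10.6% below. Ube2n turned to 0.30 and 0.10 log2 units for LPS in control cells after median-of-ratios scaling and quantile normalization, and Ube2v1 to 0.11 after the former. Of 1909 refitted values of a chosen list of named genes, 3 reversed, 5 lost their call and 1901 did neither. These refits include fits without a library outside the comparison, which leave the change itself as it was. The list does not stand for all 74 members. Across the scalings the sign of 27 members turned for LPS in control cells and of 24 in shDCLK1 cells. Between lines it turned for 6 untreated and 28 with LPS, and for 12 in the interaction.

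Leaving out each library in turn gave 7 Ube2 genes higher in every fit and 17 to 19 lower, and 10 Usp genes higher in every fit and 23 to 24 lower, for LPS in control cells. In shDCLK1 cells these were 6 to 8, 17 to 19, 8 to 10 and, in every fit, 23. Between untreated lines they were 3 to 4, 6 to 7, 3 to 9 and 9 to 13, between lines with LPS 3 to 5, 5 to 9, 10 to 12 and 3 to 8, and for the interaction 5 to 7, 6 to 8, 10 to 12 and 3 to 5. Of all genes, these fits called 24.0% to 24.9% higher and 61.1% to 62.2% lower for LPS in control cells. In shDCLK1 cells the shares were 24.1% to 24.9% and 58.5% to 59.8%, and between untreated lines 19.1% to 21.7% and 19.9% to 24.4%. They were 30.1% to 34.4% and 12.1% to 14.5% between lines with LPS, and 30.2% to 32.0% and 15.6% to 16.7% for the interaction. A fit with the replicate block was made although no shared effect of the numbers was seen, and 6 of 36 comparisons put a library closest to its own number. This fit gave for Ube2 and Usp genes higher and lower 7, 19, 10 and 24 for LPS in control cells. It gave 8, 18, 10 and 23 in shDCLK1 cells, 4, 6, 7 and 11 between untreated lines, 4, 6, 11 and 8 with LPS and 6, 6, 11 and 4 for the interaction. With this block 24.6%, 24.7%, 20.7%, 33.2% and 31.7% of all genes were higher in the 5 comparisons, in that order. Lower were 62.0%, 59.6%, 22.8%, 13.7% and 16.2%. Depth in reads is unknown, so the error of low members such as Ube2t with LPS cannot be stated beyond the spread of 3 libraries.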

Other observations

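Dmwd, listed among partners of Usp proteins because it binds Usp12 and Usp46, had opposite LPS changes in the 2 lines. It was at 15.6, 17.1 and 15.2 FPKM in untreated control and at 1.92, 2.47 and 2.35 FPKM in control libraries with LPS. In shDCLK1 libraries it was at 7.68, 6.77 and 7.51 FPKM untreated and at 9.94, 10.6 and 11.2 FPKM with LPS. The change was -2.39 log2 units in control and 0.48 log2 units in shDCLK1 cells, and the interaction was 2.86 log2 units. Dmwd was chosen after its values were seen. Stambpl1, a JAMM protease for K63-linked chains, was at 23.2 FPKM untreated and 17.9 FPKM with LPS in control cells and at 27.8 and 27.3 FPKM in shDCLK1 cells.

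Uchl1, of the UCH proteases, was low in every group and higher in shDCLK1 cells, at means of 1.26 and 0.9 FPKM in control and 2.79 and 2.36 FPKM in shDCLK1 cells without and with LPS. Zufsp, the symbol in the table for a K63-selective protease, was at 3.71 FPKM in untreated control and 5.81 FPKM in untreated shDCLK1 cells, and at 16.3 and 16.7 FPKM with LPS.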
